A study of Mus musculus with 4 samples.

Results

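Smooth muscle-like cells were followed in single-cell mRNA libraries of the fetal mouse penis in which *Nr5a1*-lineage cells had been removed. Cells were chosen by their measured transcripts. A cell was counted as smooth muscle-like when it held more than 1000 unique molecular identifiers (UMIs, each marking 1 captured mRNA molecule), at most 25% mitochondrial and 25% hemoglobin UMIs, at least 3 of the 6 muscle transcripts *Acta2*, *Tagln*, *Myh11*, *Cnn1*, *Actg2* and *Des*, and fewer than 3 of the pericyte transcripts *Rgs5*, *Kcnj8*, *Abcc9*, *Notch3*, *Higd1b* and *Cspg4*. By this rule 711 of 36423 kept cells were smooth muscle-like, 599 of them in control and 112 in ablated libraries. The libraries came from male embryos at embryonic day 16.5, and each genotype had 2 libraries. Controls (DTA-) were *Nr5a1*-Cre-negative and carried the DTA f/+ allele at the Rosa locus, where diphtheria toxin subunit A lies behind a stop cassette. Ablated embryos (DTA+) carried the same allele together with *Nr5a1*-Cre, so toxin was made wherever that Cre had acted. Per the study's methods, the cross that gave them also carried a Rosa allele with the red fluorescent reporter *tdTomato* behind a stop cassette. *Nr5a1* is also used by the gonad and the adrenal, so the toxin was not limited to the genital tubercle. The deposited libraries held 12580 and 11607 cells with 73577028 and 53654435 UMIs in DTA- 1 and DTA- 2, and 11510 and 11343 cells with 50794318 and 50779551 UMIs in DTA+ 1 and DTA+ 2.

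Smooth muscle cells shorten by sliding actin over myosin. *Acta2* and *Actg2* encode the smooth muscle actins, *Myh11* the smooth muscle myosin heavy chain, *Tagln* and *Cnn1* the actin-binding proteins transgelin and calponin, and *Des* the intermediate filament desmin. The program is driven by serum response factor and its partner myocardin (*Myocd*), which act through a promoter element called the CArG box. In the penis, smooth muscle surrounds vessels and fills the walls of the erectile tissue. Pericytes, the cells that wrap small vessels, share part of the muscle program, which is why their transcripts were used to set them apart.

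Of the 6 rule genes and the 15 other genes that led the smooth muscle-like cells, 17 had a promoter sequence in the RefSeq table used, and 2 of their 21 promoters held a CArG box. The share among all 32851 promoters of the same length, from 250 bases before to 50 after the gene start, was 1.63%, counted on either strand since the element reads alike on both. The 2 sequences are shown because they belong to genes that led the smooth muscle-like cells, with the CArG box in capitals. A match is a description of the letters and no evidence of binding. *Myl9*, encoding the regulatory myosin light chain, had it at chr2:156775303-156775312 (GRCm38.p6, plus strand), starting 161 bases before the gene start, and the stretch shown is chr2:156775278-156775337. *Lmcd1*, encoding a LIM-domain protein, had it at chr6:112273543-112273552 (plus strand), starting 215 bases before, within chr6:112273518-112273577.
Myl9: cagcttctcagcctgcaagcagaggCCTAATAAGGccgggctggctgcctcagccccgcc
Lmcd1: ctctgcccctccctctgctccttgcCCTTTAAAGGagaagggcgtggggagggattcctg

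The share of smooth muscle-like cells was lower in both ablated libraries than in either control. They made up 2.69% of kept cells in DTA- 1 (238 of 8832, 95% exact binomial interval 2.37 to 3.05) and 4.03% in DTA- 2 (361 of 8961, 3.63 to 4.46). In DTA+ 1 they made up 0.808% (71 of 8791, 0.631 to 1.02), and in DTA+ 2 0.417% (41 of 9839, 0.299 to 0.565). The intervals cover counting error only. The mean was 3.36% ± 0.943 (SD, n = 2) in DTA- and 0.612% ± 0.276 (SD, n = 2) in DTA+, which is 5.49-fold lower, and the groups did not overlap. An exact two-sided permutation test over the 4 libraries gave p = 0.33, the smallest value that 2 against 2 can reach. The mean share was 8.07-fold lower without DTA+ 1, 4.16-fold without DTA+ 2, 6.58-fold without DTA- 1 and 4.40-fold without DTA- 2. It was only 1.61-fold lower with at least 3 genes of a second list of 12 muscle genes. Cells of 1 library are not replicates, and the labels do not say which embryos or litters the libraries came from. A lower share of cells that meet a detection rule cannot be told apart from lower muscle transcripts in cells that are still present.

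**Figure D1:**
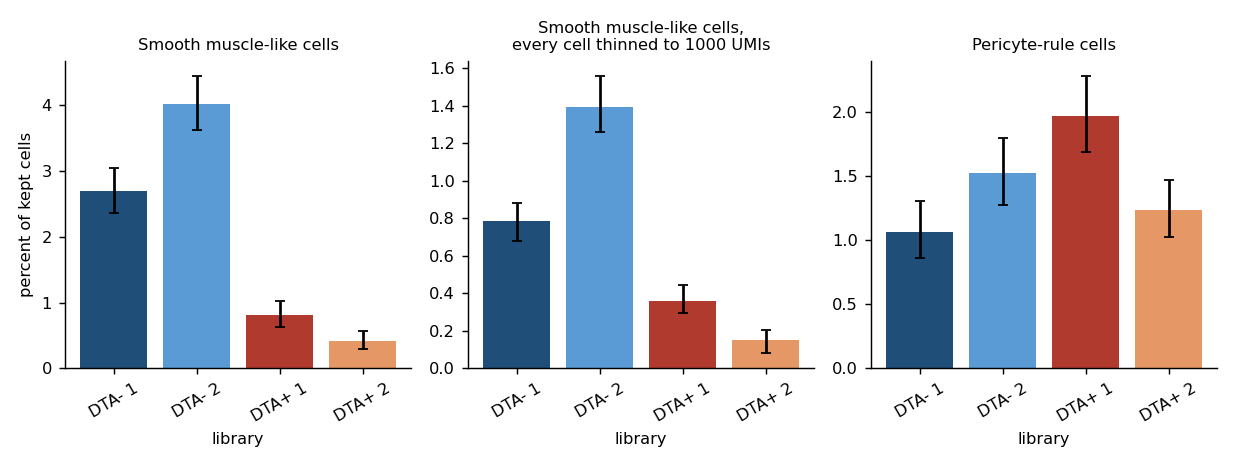
Percent of kept cells in each library (bars, y axes from 0) that were smooth muscle-like, that were smooth muscle-like after every cell was thinned to 1000 UMIs, and that met the pericyte rule. Error bars are 95% exact binomial intervals in the first and last panels and the lowest and highest of 20 draws in the middle panel; the DTA+ bars are below both DTA- bars in the first 2 panels and overlap them in the last.

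Depth moved with genotype and was therefore matched. The kept cells that were not smooth muscle-like had a median of 5412 and 4328 UMIs in DTA- and 3791 and 3767 in DTA+, while the smooth muscle-like cells had 7279, 5579, 6275 and 6783 in DTA- 1, DTA- 2, DTA+ 1 and DTA+ 2. When every cell was thinned to 1000 UMIs, the shares were 0.786% and 1.39% in DTA- and 0.358% and 0.153% in DTA+ (mean of 20 draws). The mean was then 4.27-fold lower. It was 7.13-fold lower without DTA+ 1, 3.05-fold without DTA+ 2, 5.46-fold without DTA- 1 and 3.08-fold without DTA- 2. No cell was lost to thinning, since all kept cells exceeded that depth.

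Within each of 4 depth bands both ablated libraries lay below both controls. Between 2500 and 5000 UMIs, 1.30% and 2.70% of cells were smooth muscle-like in DTA-, against 0.440% and 0.162% in DTA+. At 7500 UMIs and more, the shares were 4.73% and 7.69% against 2.45% and 1.67%. The lowest band held 4 and 12 such cells in DTA- and 1 and 0 in DTA+, where 0 of 1382 cells allows a share of up to 0.217% by the limit of 3 counts, and up to 0.267% by the exact interval.

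**Figure D2:**
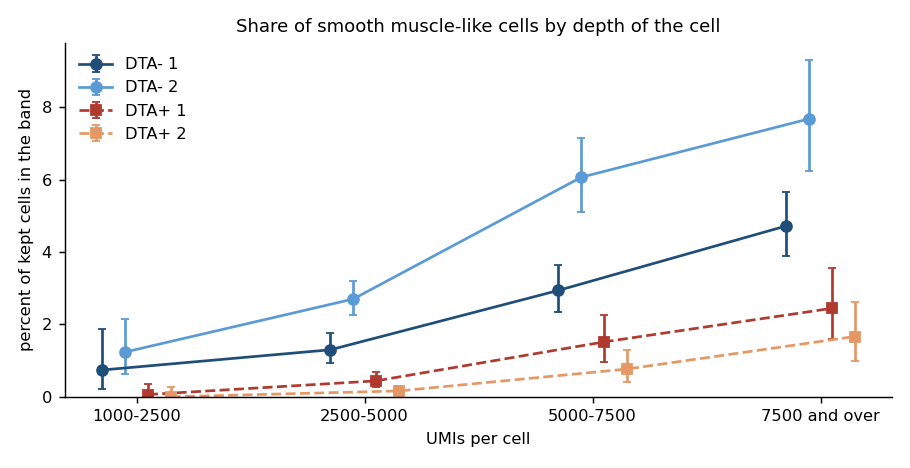
Percent of kept cells that were smooth muscle-like (y axis) in 4 bands of UMIs per cell (x axis), with 95% exact binomial intervals; circles and solid lines are DTA-, squares and dashed lines DTA+. In all bands the 2 DTA+ libraries sit below the 2 DTA- libraries, from 1.24% and 0.741% against 0.0625% and 0% in the lowest band.

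Cells with many muscle transcripts were few in the ablated libraries. Smooth muscle-like cells with at least 5 of the 6 numbered 51 and 78 in DTA-, and 7 and 0 in DTA+, where 0 of 9839 allows a share of up to 0.0305% by 3 counts and 0.0375% by the exact interval. The limit on pericyte transcripts removed part of these cells. Without it, cells with at least 5 of the 6 numbered 58 and 88 in DTA-, and 19 and 6 in DTA+, and the mean share was 5.91-fold lower, or 13.4-fold without DTA+ 1 and 3.79-fold without DTA+ 2, so the size rests on which ablated library is used. All 6 such cells of DTA+ 2 were thus set aside by their pericyte transcripts. Among smooth muscle-like cells, 52.5% and 45.4% of those in DTA- and 36.6% and 26.8% of those in DTA+ had at least 4 of the transcripts. Just inside the threshold were the cells with exactly 3, which numbered 113, 197, 45 and 30 in DTA- 1, DTA- 2, DTA+ 1 and DTA+ 2. Just outside were cells with exactly 2 and fewer than 3 pericyte transcripts, which numbered 424, 646, 299 and 267, and they held 116, 110, 83.2 and 109 CPM of *Acta2* (UMIs of a gene scaled to a summed total of 1000000) against 816, 562, 516 and 638 CPM in the cells with exactly 3. With 2 transcripts as the minimum the mean share was only 2.55-fold lower in DTA+, and with no limit on pericyte transcripts 3.22-fold lower. *Acta2* is a rule gene, so this contrast was set by the selection. The class was cut from a count of transcripts and is given as a range of that count.

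Pericytes were compared because they share part of the muscle program, and their share overlapped between the genotypes. Cells with at least 3 pericyte transcripts made up 1.06% and 1.52% of kept cells in DTA- and 1.97% and 1.23% in DTA+, and these groups overlapped. Their mean was 1.29% ± 0.321 (SD, n = 2) in DTA- and 1.60% ± 0.522 (SD, n = 2) in DTA+ (exact two-sided permutation test, p = 0.667). Cells with both at least 3 muscle and at least 3 pericyte transcripts made up 0.272% and 0.424% in DTA- and 0.660% and 0.417% in DTA+. Whether the pericyte share and the smooth muscle share responded differently was not tested. *Rgs5*, a regulator of G protein signaling typical of pericytes, is one of the rule's transcripts, so its contrast between the classes was set by the selection. It was at 1500.5, 2336, 1706 and 1849 CPM in pericyte-rule cells, and at 3.98, 1.65, 5.31 and 20.8 CPM in smooth muscle-like cells, of DTA- 1, DTA- 2, DTA+ 1 and DTA+ 2.

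The levels of the rule genes describe the class. Their excess over the other kept cells was fixed by the selection, so they are no check of its identity and are given without a test. In the order DTA- 1, DTA- 2, DTA+ 1, DTA+ 2, *Acta2* was at 1551, 1412, 1383 and 836 CPM in smooth muscle-like cells and at 40.1, 62.9, 80.8 and 56.8 CPM in the other kept cells. *Tagln* was at 885, 1084, 708 and 1067 CPM, and *Myh11* at 253, 434, 335 and 138 CPM. For *Acta2* and *Myh11* DTA+ 2 was the lowest library, and for *Tagln* DTA+ 1 was. *Cnn1* was at 54.8, 62.9, 76.1 and 28.6 CPM, *Actg2* at 215, 185, 170 and 72.7 CPM, and *Des* at 71.5, 93.5, 58.4 and 49.3 CPM. The 6 transcripts together summed to 3029 and 3271 CPM in DTA- and to 2730 and 2191 CPM in DTA+. Smooth muscle-like cells held 57.4% of all *Acta2* UMIs of kept cells in DTA- and 15.4% in DTA+, and for *Cnn1* 87.3% and 51.9%.

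The 15 genes outside the rule that led the class included contractile proteins, transcription factors, a receptor subunit, an integrin and secreted factors. They were ranked by the ratio of smooth muscle-like to other kept cells after adding 10 CPM to both, among genes detected in at least 10% of the class in every library, and are a description. *Mylk*, the kinase that switches myosin on, was at 484, 463, 439 and 127 CPM in smooth muscle-like cells against 38.9, 44.5, 52.3 and 45.1 CPM in the others. *Myocd* followed with 117, 160, 129 and 57.1 CPM against 8.55, 16.7, 8.21 and 4.34 CPM. *Ramp1*, a partner of the receptor for the vasodilator CGRP, came next at 256, 296, 257 and 49.3 CPM, and after *Myl9* came the integrin *Itga8* at 144, 203, 191 and 26 CPM against 18.2, 24.7, 24.8 and 27.5 CPM, so that in DTA+ 2 it was not higher in the class. For *Mylk*, *Ramp1* and *Itga8* the first ablated library lay near the controls and the second far below. In pericyte-rule cells *Mylk* was at 216, 369, 318 and 282 CPM and *Myl9* at 512, 711, 481 and 473 CPM, so that the pericyte-rule cells of DTA+ 2 held more *Mylk* than the class did. *Lmod1* was at 19.9, 65.9, 34.6 and 38.5 CPM there, above the 30.1 and 20.8 CPM of the class in the ablated libraries. Next in rank were the actin nucleator *Lmod1*, the troponin *Tnnt1*, which is also on the skeletal muscle list, the Z-disc protein *Synpo2* and tropomyosin *Tpm1*, followed by the growth factor *Fgf7*, the transcription factor *Mef2c*, *Rcan2*, *Lmcd1*, the filamin *Flna* and *Egfl6*.

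**Figure D3:**
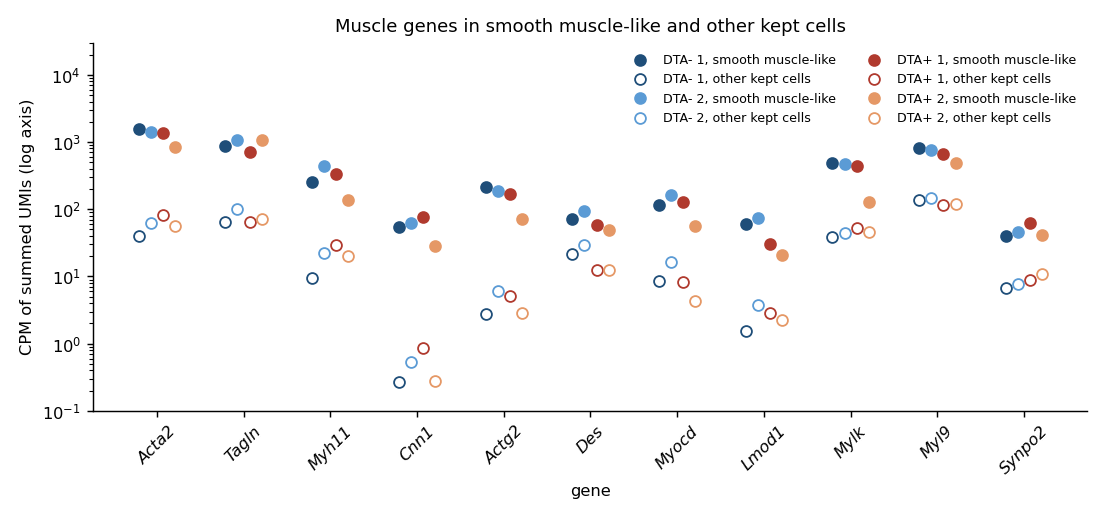
CPM of summed UMIs (log axis) for the 6 rule genes and 5 of the leading genes in each library, in smooth muscle-like cells (filled) and the other kept cells (open). The filled points lie above the open points of the same library for each gene shown, and DTA+ 2 is the lowest filled point for 9 of the 11 genes.

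Transcripts that define other cell types were present at unequal levels among the libraries. All 711 smooth muscle-like cells also held at least 3 general mesenchymal transcripts, and skeletal muscle regulators *Myod1*, *Myog*, *Myf5* and *Pax7* were at 0 UMIs in them in all 4 libraries. At least 3 transcripts of endothelial, macrophage, mast, Schwann, epithelial or skeletal muscle cells were found in 16, 13, 5 and 1 of the cells of DTA- 1, DTA- 2, DTA+ 1 and DTA+ 2. The 8 endothelial genes summed to 45.9, 275, 15.9 and 10.4 CPM in the smooth muscle-like cells and to 324, 296, 345 and 255 CPM in the others, and *Emcn* was at 0 UMIs in the former in DTA+ 2. The 8 mast cell genes summed to 49.0, 329, 839 and 7.79 CPM, against 1018, 1203, 1106 and 744 CPM in the others, with *Cma1* the most abundant in DTA+ 1 at 411 CPM and *Fcer1a* at 0 in all 4. The 8 macrophage genes summed to 99.8, 25.7, 214 and 5.19 CPM against 253, 267, 303 and 270.3 CPM. The 8 epithelial genes summed to 344, 30.6, 10.6 and 18.2 CPM against 417, 227, 489 and 171 CPM. The part of these cells in the genotype differences was measured only by leaving them out. As a background measure, the muscle rule was met by 6 of 2432, 2 of 1743, 1 of 1734 and 0 of 902 erythroid cells that the hemoglobin limit had removed. These shares were 0.247%, 0.115% and 0.0577% in the first 3, and the last allows a share of up to 0.33% by 3 counts and 0.408% by the exact interval. The median depth of those cells was 4599, 3148, 3680 and 3856 UMIs. Scrublet, which scores resemblance to simulated doublets, gave high scores to 23.1%, 17.5%, 21.1% and 43.9% of the smooth muscle-like cells and to 10.8%, 9.15%, 9.80% and 9.18% of the others. Without high-scoring cells the mean share was 6.22-fold lower in DTA+. With a library also left out it was 11.6-fold (DTA+ 1), 4.25-fold (DTA+ 2), 7.62-fold (DTA- 1) or 4.83-fold (DTA- 2) lower. Of the barcodes, 129, 119, 114 and 114 were present in more than 1 library, 4, 8, 1 and 0 of them among smooth muscle-like cells.

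Clustering the 711 cells by themselves gave 7 clusters, which are described by number and leading genes without a test. Cluster 1, led by *Lgals7*, *Cnn1*, *Tnn*, *Synpo2* and *Myh11*, had the highest mean number of muscle transcripts, 4.56 of 6, and held 32 and 59 cells of DTA- and 7 and 0 of DTA+. Cluster 6, led by *Tnnt2*, *Pcp4l1*, *Scn3a*, *Sbspon* and *Mylk*, had a mean of 4.07 and held 49 and 76 cells against 26 and 5. Both had *Acta2* well above the remaining clusters, at 4116 and 2948 CPM. Cluster 6 held 36.6% and 12.2% of the smooth muscle-like cells of DTA+ 1 and DTA+ 2, and 20.6% and 21.1% of those of the controls.

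Clusters 2 and 3 differed in size between the controls themselves. Cluster 2, led by the BMP and Wnt antagonist *Sostdc1* and the transcription factor *Tfap2a*, held 11 and 90 control cells and 2 and 6 ablated cells. Cluster 3, led by *Apoe*, *Fibin* and *Wnt2*, held 61 and 22 against 7 and 4. Cluster 4, led by the angiotensin receptor *Agtr2*, *Thbs2* and *Scube2*, held 29 and 66 against 5 and 1.

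Clusters 5 and 7 were those in which most cells had high doublet scores, 63.3% and 68.8%. Cluster 5, led by cell division genes such as *Ube2c* and *Top2a*, held 27 and 23 against 5 and 5 cells. Cluster 7, led by *Flt1*, *Tm4sf1*, *Rgcc*, *Crip2* and the endothelial gene *Emcn*, held 29 and 25 against 19 and 20 cells. *Flt1* was detected in 21.5% and *Emcn* in 10.8% of its cells, and *Emcn* was at 0 UMIs in the class in DTA+ 2, so these genes do not describe most of its cells. It took 12.2% and 6.93% of the smooth muscle-like cells of DTA- 1 and DTA- 2 and 26.8% and 48.8% of those of DTA+ 1 and DTA+ 2. Outside these 2 clusters, smooth muscle-like cells made up 2.06% and 3.49% of kept cells in DTA- and 0.535% and 0.163% in DTA+. The 2 clusters were set aside after their scores were seen.

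**Figure D4:**
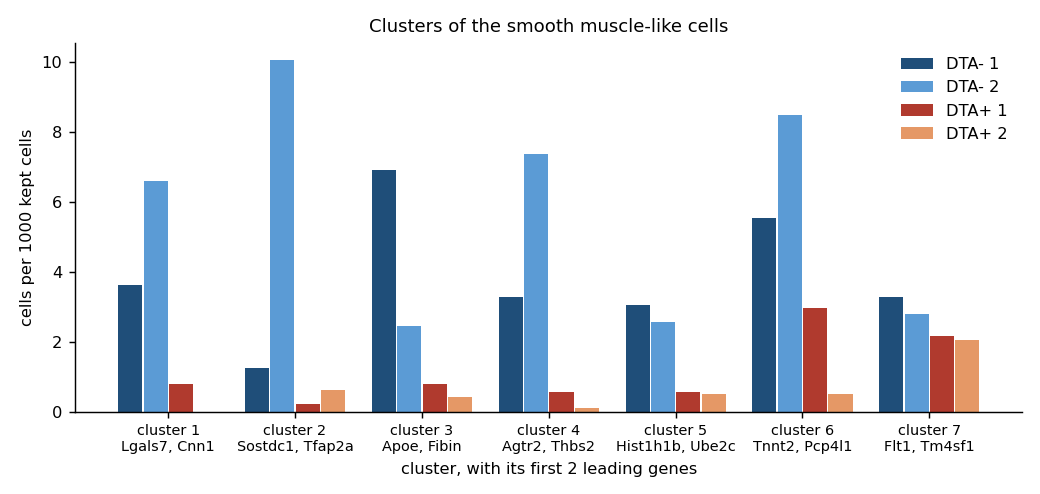
Smooth muscle-like cells of each of the 7 clusters per 1000 kept cells (y axis) in each library (colors), with the first 2 leading genes of each cluster under its number. Each of the 7 clusters is lower in both DTA+ libraries than in either DTA- library, and the bars of cluster 7 lie closest together.

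Gene levels in the remaining smooth muscle-like cells were then compared between genotypes, on UMIs summed per library and tested with the quasi-likelihood method of edgeR, with p-values adjusted by Benjamini and Hochberg's procedure over 10026 genes. The summed libraries held 2264297 and 2417029 UMIs in DTA- and 564891 and 385186 in DTA+, so the ablated sums were the shallower. The cells also lay in different clusters, with cluster 7 holding 12.2% and 6.93% of the class in DTA- against 26.8% and 48.8% in DTA+, and cluster 4 12.2% and 18.3% against 7.04% and 2.44%, and the part of this in the gene differences was not tested. At an adjusted p under 0.05, 4 genes rose (0.0399% of the genes tested) and 1 fell (0.00997%), together 0.0499%, and 758 genes (7.56%) had an unadjusted p under 0.05. In the other kept cells 0.113% of the genes tested passed. The number called without DTA- 1, DTA- 2, DTA+ 1 or DTA+ 2 was 174, 110, 263 or 233, each including the same 5, where the lone remaining library of a genotype was assumed to vary like the others. With cells of another class left out, 24 genes passed.

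Of the risen transcripts, 2 came from the engineered Rosa locus or its reporter. *tdTomato*, the fluorescent reporter, was at 0 UMIs in both controls and at 81.4 and 59.7 CPM in DTA+, at least 110-fold higher than 3 UMIs over the control group would give. The labels call the control genotype WT and do not say whether the controls carried the *tdTomato* allele. If they did not, the 0 and the fold say nothing about expression. Other kept cells of the ablated libraries held 80.2 and 66.6 CPM, so the reporter was not particular to the smooth muscle-like cells. *Gt(ROSA)26Sor*, the noncoding transcript of the locus (chr6:113067428-113077333, GRCm38), was at 11.5 and 14.1 CPM in DTA- and 70.8 and 88.3 CPM in DTA+, a log2 difference of 2.55 ± 0.28 (SE; edgeR, adjusted p = 0.0178). In the other kept cells it was at 14.7 and 17.9 CPM against 70.7 and 86.0 CPM. The study's methods describe the reporter as leaky, and whether the cells carried it by lineage cannot be told from these levels.

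*Dkk2*, a secreted Wnt modulator (chr3:132085292-132180304), rose in the ablated libraries. It was at 43.7 and 48.4 CPM in DTA- and at 186 and 239 CPM in DTA+, a log2 difference of 2.13 ± 0.21 (SE; edgeR, adjusted p = 0.0142), with every ablated value above every control value. In the other kept cells it was at 86.3 and 73.5 CPM against 136 and 222 CPM, and the interaction of genotype and cell class was 0.95 ± 0.33 on the log2 scale (SE; edgeR, adjusted p = 0.962). With the library as a block, which pairs the 2 sums of each library, it was 1.00 ± 0.18 (SE; edgeR, adjusted p = 5.53e-04). Among cells with at least 4 muscle transcripts, of which DTA+ held 26 and 11, its difference was 1.17 and no longer passed (edgeR, adjusted p = 0.608).

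*Nrk*, which encodes a kinase of the X chromosome (chrX:138914430-139010532), was the 1 gene called lower, a call that was lost with the replicate number as a block (log2 difference -2.07; edgeR, adjusted p = 0.0723). It was at 143 and 166 CPM in DTA- and at 38.9 and 36.3 CPM in DTA+, a log2 difference of -2.08 ± 0.24 (SE; edgeR, adjusted p = 0.0224). The other kept cells held 77.0 and 135 CPM against 70.7 and 61.5 CPM, and the interaction was -1.42 ± 0.43 (SE; edgeR, adjusted p = 0.962), and -1.47 ± 0.24 with the library as a block (SE; edgeR, adjusted p = 6.67e-05). Among cells with at least 4 muscle transcripts the difference was -1.60 (edgeR, adjusted p = 0.328).

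*Fabp7*, a fatty acid-binding protein of glia (chr10:57784881-57788450), rose from 6.62 and 7.45 CPM in DTA- to 53.1 and 75.3 CPM in DTA+, a log2 difference of 3.09 ± 0.34 (SE; edgeR, adjusted p = 0.0178). All 6 Schwann genes tested, of 8 on the list, were higher in both ablated libraries than in both controls, as were 22.9% of all genes tested. The 8 on the list summed to 46.4 and 27.7 CPM in DTA- and 310 and 192 CPM in DTA+. *Fabp7* was the most abundant of them in DTA+ 2. Cells with at least 3 Schwann transcripts numbered 2, 1, 2 and 1 among the smooth muscle-like cells. With cells of another class left out, *Fabp7* was at 2.23 and 0 CPM in DTA- and at 0 in both ablated libraries, and the Schwann sum fell to 7.26, 4.62, 18.3 and 5.43 CPM. The 8 Schwann genes, *Fabp7* among them, were used to leave such cells out, so this fall was in part set by the selection. Leaving out high Scrublet scores instead did not remove the rise of *Fabp7*. *Fabp7* was then at 2.77 and 0 CPM in DTA- and at 47.7 and 128 CPM in DTA+, and the Schwann sum at 27.0, 4.17, 243 and 327 CPM. In the other kept cells *Fabp7* was at 22.9, 14.2, 21.8 and 18.7 CPM. Its interaction with the library as a block was 2.93 ± 0.37 (SE; edgeR, adjusted p = 1.50e-07), and was not past the threshold with cells of another class left out of both sums (edgeR, adjusted p = 0.947). That loss was likewise in part set by the selection.

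**Figure D5:**
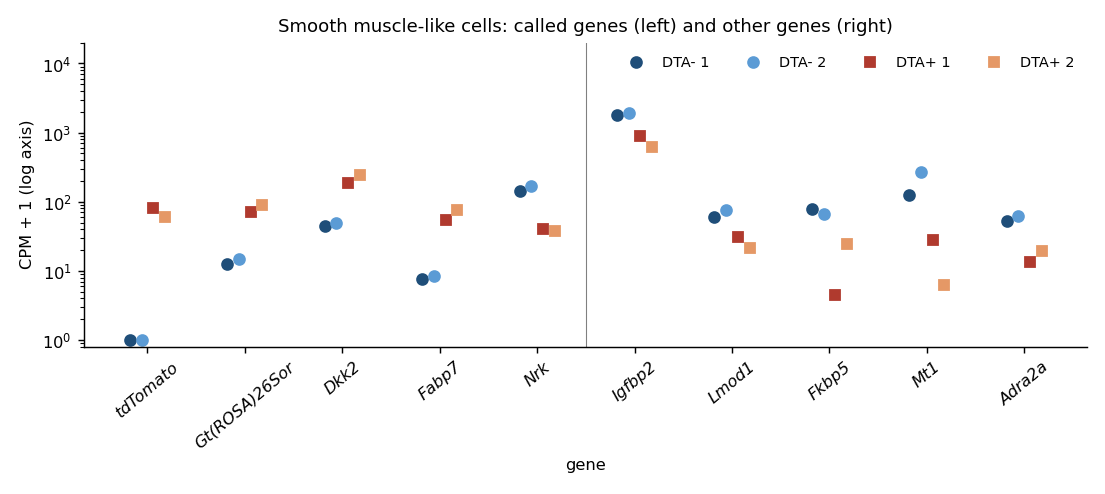
CPM plus 1 (log axis) in smooth muscle-like cells of each library for the 5 genes that passed the test (left of the line) and 5 that did not (right), with circles for DTA- and squares for DTA+. Ablated and control points do not overlap for any gene shown, and *tdTomato* is at 0 CPM in both controls.

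Other contractile genes leaned lower in the ablated libraries, but none passed the test. Of 30 on the list, 26 were tested, their median log2 difference was -0.43 against -0.00 over all genes tested, and the groups did not overlap for 11 that were lower and 2 that were higher in DTA+. Over all genes tested, 15.6% were lower and 22.9% higher without overlap. A gene could pass the filter on low counts in 1 genotype alone, so counts over lists are descriptions. *Lmod1* was at 59.6 and 74.1 CPM in DTA- and at 30.1 and 20.8 CPM in DTA+ (log2 difference -1.41 ± 0.31, SE; edgeR, adjusted p = 0.208), and it passed in 3 of 14 alternatives, with differences of -1.79 to -0.88. Alternatives counted here and below include the likelihood ratio test and the fits without a library, which leave 1 library in a genotype. Those called many more genes, so such counts are descriptions. Tropomyosin *Tpm2* was at 549 and 583 CPM against 397 and 415 CPM, and *Ppp1r14a*, an inhibitor of myosin phosphatase, at 150 and 175 CPM against 93.8 and 101 CPM. *Myocd* had a log2 difference of -0.58 ± 0.34 (SE; edgeR, adjusted p = 0.742). Without DTA+ 1 it was -1.38, but without DTA+ 2, DTA- 1 or DTA- 2 it was -0.13, -0.82 or -0.33. Of 24 muscle transcription regulators 21 were tested and none was called, with a median log2 difference of -0.22 and 5 lower and 3 higher without overlap. A smaller part of the class had at least 4 muscle transcripts in DTA+. In those cells, 26 and 11 in DTA+, *Mylk* was at 660 and 835 CPM in DTA- against 931 and 204 CPM in DTA+. *Myl9* was at 972 and 1067 against 1028 and 927 CPM, and *Myocd* at 111 and 219 against 199 and 81.5 CPM. *Lmod1* (81.5 and 127 against 66.2 and 40.8 CPM) and *Tpm2* (631 and 823 against 616 and 581 CPM) were lower in both. The part of transcript number in this lean was not tested.

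None of the 17 tested of 20 genes that glucocorticoids are known to induce was called between genotypes. Without overlap 8 (47.1%) were lower and 0 higher, against 15.6% lower and 22.9% higher over all genes tested. Their median log2 difference was -0.73, also with genes at 0 in a genotype held at the bound that 3 UMIs give. *Fkbp5*, a co-chaperone of steroid receptors, was at 76.4 and 65.8 CPM in DTA- and at 3.54 and 23.4 CPM in DTA+ (log2 difference -2.64 ± 0.48, SE; edgeR, adjusted p = 0.128). It passed in 7 of 13 alternatives, DESeq2 among them (adjusted p = 0.0307), and its difference was -1.70 without DTA+ 1 and -4.32 without DTA+ 2. It also passed in the other kept cells, at 69.0 and 74.4 CPM against 14.1 and 14.5 CPM (log2 difference -2.39; edgeR, adjusted p = 0.00423), and the interaction was -0.34 ± 0.54 (SE; edgeR, adjusted p = 0.967), also not past the threshold with the library as a block (edgeR, adjusted p = 0.973). The metallothionein *Mt1* was at 124 and 270 CPM against 26.6 and 5.19 CPM (log2 difference -3.54 ± 0.57, SE; edgeR, adjusted p = 0.102), and it passed in 9 of 14 alternatives, with differences of -5.34 to -2.86. *Mt2* was at 19 and 28.5 CPM in DTA- and at 0 UMIs in both ablated libraries, at least 7.53-fold lower when 3 UMIs over the ablated group are taken as the floor. The sulfotransferase *Sult1a1*, at 12.4 and 14.5 CPM in DTA-, was also at 0 UMIs in both ablated libraries, at least 4.25-fold lower.

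Few steroid receptors and converting enzymes passed the filter on low counts. *Srd5a2*, which makes dihydrotestosterone, was at 22.5 and 59.6 CPM in DTA- and at 10.6 and 0 CPM in DTA+ (log2 difference -2.77 ± 0.84, SE; edgeR, adjusted p = 0.440). It passed in 4 of 12 alternatives, among them the likelihood ratio test (edgeR, adjusted p = 0.0108), and without DTA- 2, DTA+ 2 or DTA- 1 the difference was -1.90, -1.98 or -3.32. Without DTA+ 1 the ablated side was at 0 and no fold is given. Of 11 on the list 4 were tested and none was called. Without overlap 2 of the 4 were higher and 1, *Srd5a2*, was lower, and the median log2 difference was 0.32. Of 16 androgen-induced genes 10 were tested and none was called, with 4 lower and 3 higher without overlap and a median log2 difference of -0.17. Over all genes tested the shares without overlap were 15.6% lower and 22.9% higher.

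Of 9 genes that the study's text names in connection with the *Nr5a1* lineage, 8 were tested and none was called, with 3 lower and 3 higher without overlap and a median log2 difference of -0.44. Each was a share of 37.5%, against 15.6% lower and 22.9% higher over all genes tested. The 3 that were higher without overlap were the scaffold protein *Akap12*, which the study uses as a marker of the prepuce in general and not of this lineage, at 364 and 489 CPM in DTA- and 524 and 527 CPM in DTA+, the collagen *Col23a1*, at 112 and 125 against 145 and 135 CPM, and the protease inhibitor *Timp1*, at 15 and 9.52 against 17.7 and 28.6 CPM. *Grem1*, a BMP antagonist, was at 135 and 143 CPM in DTA- and at 77.9 and 2.60 CPM in DTA+ (log2 difference -1.67 ± 0.60, SE; edgeR, adjusted p = 0.531), and DTA+ 2 was far below DTA+ 1. Without DTA+ 2 its log2 difference was -0.86, and without DTA+ 1, DTA- 1 or DTA- 2 it was -5.80, -1.75 or -1.63. Each of these fits left 1 library in a genotype, so only the differences are given. Among cells with fewer than 7500 UMIs it was -3.10 and passed (edgeR, adjusted p = 0.0123), and without high Scrublet scores -2.53 (edgeR, adjusted p = 0.0986). *Scube2*, a secreted protein that helps release hedgehog ligands, was at 24.3 and 7.45 CPM against 1.77 and 0 CPM, and passed in 2 of 8 alternatives. *Col6a6*, a collagen VI chain, was at 18.5 and 48.4 CPM against 1.77 and 5.19 CPM, and passed in 4 of 12, with log2 differences of -4.43 to -2.54. *Nrg1*, a ligand of ERBB receptors, did not pass the filter on low counts and was at 3.53, 2.90, 0 and 18.2 CPM.

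Signaling genes held the 1 list member called besides the reporter and locus and *Fabp7*, namely *Dkk2*. Of 52 BMP, Wnt, hedgehog, Notch and growth factor genes 50 were tested, and 21 were higher and 10 lower without overlap, with a median log2 difference of 0.08. The shares higher and lower were 42% and 20%, against 22.9% and 15.6% over all genes tested. *Igfbp2*, an insulin-like growth factor-binding protein, was at 1784 and 1945 CPM in DTA- and at 890.4 and 620.5 CPM in DTA+ (log2 difference -1.35 ± 0.19, SE; edgeR, adjusted p = 0.0628). It passed in 12 of 14 alternatives, but not with at least 4 muscle transcripts, where the difference was -0.85 (edgeR, adjusted p = 0.701), nor with the replicate block (edgeR, adjusted p = 0.0986). It was also lower in the other kept cells, at 935 and 862 CPM against 345 and 369 CPM (log2 difference -1.40; edgeR, adjusted p = 0.0134), and the interaction was -0.03 ± 0.24 (SE; edgeR, adjusted p = 1), or -0.04 with the library as a block (edgeR, adjusted p = 0.989). *Igfbp5*, of the same family, was at 897 and 959 CPM against 432 and 545 CPM (log2 difference -0.99; edgeR, adjusted p = 0.102). It passed in 11 of 14 alternatives, with differences of -1.48 to -0.29, the last with at least 4 muscle transcripts (edgeR, adjusted p = 0.968). The noncanonical Notch ligand *Dlk1* was at 905 and 885 CPM against 604 and 524 CPM (log2 difference -0.72; edgeR, adjusted p = 0.192), and passed in 2 of 14, with differences of -1.06 to -0.13.

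Among 28 genes of muscle tone and cyclic GMP signaling, 21 were tested and none was called, with 8 lower and 5 higher without overlap and a median log2 difference of -0.13. The shares lower and higher were 38.1% and 23.8%, against 15.6% and 22.9% over all genes tested. The adrenergic receptor *Adra2a* was at 51.7 and 60.8 CPM in DTA- and at 12.4 and 18.2 CPM in DTA+ (log2 difference -1.98 ± 0.33, SE; edgeR, adjusted p = 0.127), and it passed in 7 of 13 alternatives, with differences of -2.42 to -0.71, the last with at least 4 muscle transcripts (edgeR, adjusted p = 0.946). The endothelin receptor *Ednra* was at 48.6 and 49.6 CPM against 81.4 and 83.1 CPM. Of 44 matrix and adhesion genes 42 were tested and none was called, with 10 higher and 8 lower without overlap and a median of 0.08. Integrin *Itga4* was at 7.51 and 8.69 CPM against 33.6 and 36.3 CPM (log2 difference 2.03 ± 0.37, SE; edgeR, adjusted p = 0.128), and passed in 3 of 11 alternatives. Of 24 positional genes 22 were tested and none was called, and of 24 immediate early and stress genes all were tested and none was called, with medians of 0.24 and 0.03.

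Cell division genes were detected in part of the class. At least 3 of 8 cell division transcripts were found in 17.6% and 10.2% of smooth muscle-like cells in DTA- and in 8.45% and 14.6% in DTA+, and these groups overlapped. In the other kept cells the shares were 18.7% and 16.0% against 11.5% and 8.56%, with the shallower depth of those cells in DTA+ given above.

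Whether a gene's genotype difference was the same in the smooth muscle-like cells as in the other kept cells was tested as the interaction between genotype and cell class, and the calls depended on the design. Without a block, 0 of 15882 genes passed (edgeR's quasi-likelihood test, adjusted p under 0.05, 0.0%), and 689 (4.34%) had an unadjusted p under 0.05. The likelihood ratio test called 13. Both sums of a library come from the same tissue, and with the library as a block 105 genes passed (0.661%), 43 with a higher and 62 with a lower log2 difference in the smooth muscle-like cells. Of these, 2 were rule genes and 15 were markers of endothelial, macrophage, mast, Schwann or epithelial cells. With cells of another class left out of both sums, an alternative chosen after the data were seen, 33 genes passed (0.217%), 2 of them rule genes and none of those markers. The markers were used to leave the cells out, so their absence was in part set by the selection. Outside the rule genes, 26 of the 31 then called were also among the 103 called with those cells present.

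Genes named above that passed with the library as a block, with and without cells of another class, were *Dkk2*, *Nrk*, *Mt1*, *Dlk1* and *Akap12*. For *Dlk1* the interaction was -0.84 ± 0.14 (SE; edgeR, adjusted p = 1.28e-04), with 341 and 493 CPM in the other kept cells of DTA- and 423 and 465 CPM in those of DTA+. For *Akap12* it was -0.69 ± 0.15 (SE; edgeR, adjusted p = 0.00426), where the other kept cells held 98.0 and 199 CPM against 276 and 259 CPM. *Mt1* had -2.40 ± 0.29 (SE; edgeR, adjusted p = 3.62e-08), with 90.6 and 161 CPM against 75.6 and 34.8 CPM in the other kept cells. *Mt1* and *Dlk1* were among the leading genes of cluster 4. The growth factor *Igf1*, also called in both, was at 104 and 81.5 CPM in the smooth muscle-like cells of DTA- and 122 and 195 CPM in those of DTA+, and at 101 and 159 CPM against 76.7 and 89.9 CPM in the other kept cells (1.28 ± 0.20, SE; edgeR, adjusted p = 2.81e-05). *Mylk* and *Grem1* passed with all cells, at -1.07 ± 0.19 and -1.33 ± 0.29 (SE; edgeR, adjusted p = 3.47e-04 and 0.00472). They did not pass with cells of another class left out (edgeR, adjusted p = 0.0753 and 0.0614), and a lost call alone does not show whether the difference shrank. Over 14 alternatives the genotype difference within the class ran from -1.99 to -0.13 for *Mylk* and from -5.80 to -0.86 for *Grem1*. For both genes DTA+ 2 was the lowest library.

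In counts simulated at the depth of these sums over the 10026 genes of the comparison within the class, fewer than the 15882 of the interaction, with no library effect and 200 genes given a log2 change of 1, the comparison within the class recovered 15% with a median of 4 false calls, and the interaction recovered 0% without and with the block, with 0 and 1 false calls. With changes of 2, the comparison within the class recovered 71.5% with 13 false calls, the interaction 55% with 2, and the blocked interaction 54% with 9.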

How the data were processed

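The authors prepared 10x Genomics 3' libraries, sequenced them together on 1 flow cell and deposited UMI counts per gene and cell (32287 features), made with Cell Ranger 4.0.0 per the submitters' processing notes, on mm10 with reporter sequences added. These counts are unnormalized, and 3507 deposited cells had 1000 UMIs or fewer. From them, cells were kept and chosen as the report states, with the hemoglobin limit applied to Hba and Hbb genes together. The members and gene lists were chosen with earlier results of these data known. Doublets were scored with Scrublet (scanpy 1.11.5), whose automatic threshold marked 0, 0, 2 and 0 cells and was not used. A high score means the top-scoring share of a library, 0.8% for each 1000 cells over the UMI limit. Doublets were kept in the main setting.

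UMIs were summed per library and tested with edgeR 4.0.16 (TMM, filterByExpr, genotype only, R 4.3.3). The interaction was fitted without and with the library as a block. CPM values are of plain sums. Clusters came from Leiden at resolution 0.8 on 2000 variable genes and 20 components. Resolutions 0.4 and 1.2 gave 5 and 11. Named were the 12 rule genes, list members that passed and Myocd, Grem1, Scube2, Nrg1, Fkbp5, Srd5a2 and tdTomato, up to 10 called genes a direction averaging 20 CPM or more without overlap, and the 15 leading genes. A result that the rule also named is not reported here. Other named genes were chosen after their values were seen. The tests were checked on simulated counts. The study's methods give 2 embryos and treat replicates as biological, while the labels do not say which animals the libraries came from, so p-values measure the spread between these libraries. Coordinates are GENCODE vM21 (GRCm38), promoters RefSeq (GRCm38.p6).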

Additional observations from a re-analysis of the deposited data

How the results depend on the processing

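The mean share of smooth muscle-like cells was lower in DTA+ under every alternative tried. On the log2 scale the main difference was -2.46. It was -1.35 with at least 2 muscle transcripts, -1.69 with no limit on pericyte transcripts and -0.69 with at least 3 genes of a second muscle list, which 12.9%, 13.7%, 8.62% and 7.85% of kept cells met. At least 5 genes of that list, added after the data were seen, gave -1.93. Leaving out each library gave -3.01 to -2.06. The pericyte-rule difference was 0.31, and -0.07 to 0.61 without each library. Its alternatives were added after the data were seen. Against 5 genes called between genotypes, edgeR's likelihood ratio test called 127, DESeq2 17, library totals without TMM 10, no filter on low counts 19, fewer than 7500 UMIs 10, removal of high Scrublet scores 11, removal of cells of another class 24, and leaving out a library 110 to 263. The cause of these changes was not tested. Dkk2 (2.13) did not pass with fewer than 7500 UMIs (1.59), after thinning (2.10) or with at least 4 muscle transcripts (1.17), Nrk (-2.08) not after thinning (-2.12), with at least 4 (-1.60) or with the block (-2.07), and Gt(ROSA)26Sor (2.55) not with at least 4 (2.57). Where Fabp7 was tested, in 10 alternatives, it passed, but without cells of another class, with fewer than 7500 UMIs, after thinning and with at least 4 muscle transcripts it was too low to test. Against 0 genes in the interaction, the likelihood ratio test called 13 and no filter 24, and leaving out each library 0. The library block called 105, and 33 without cells of another class.

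Replicate numbers are shared between the genotypes, but same-numbered libraries did not deviate together (r = -0.0653 across 10026 genes, which are not independent). With the replicate number as a block, the share differed by -2.51 and the pericyte share by 0.29 on the log2 scale, 5 genes were called, all higher in DTA+ and 4 of them shared with the main result. In the interaction the block was the library, which pairs the 2 sums made from it, and 105 genes were called. The DTA+ sums were the shallower, and the part of depth in the number of calls was not tested.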
